A study of Mus musculus with 24 samples.

Results

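The 40 genes described here act in G2 and mitosis, and were chosen by symbol: every row of the deposited expression tables that carries one of the 40 names was taken, which gave 40 of the 23307 genes in each table. By role they comprise 7 genes of or listed with the cyclin-dependent kinase engine that starts mitosis, 5 mitotic kinases and their partners, 5 genes of the spindle checkpoint, 3 of mitotic exit, 6 of the kinetochore, 5 motor proteins, 5 genes of the spindle and of cytokinesis and 4 that shape or mark chromosomes. They were measured by RNA sequencing in 20 libraries of mouse macrophages labelled wild type or Tet2 knockout. Tet2 is an enzyme that oxidises 5-methylcytosine in DNA.

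The 12 libraries of bone marrow-derived macrophages (BMDM) came from C57BL/6 marrow labelled wildtype or Tet2 knockout. The marrow was cultured for 7 days with L929-conditioned medium and M-CSF, moved the night before stimulation to DMEM with serum, for which no M-CSF is listed, and then harvested untreated (0 h) or after 10 or 24 h with interleukin 4 (IL4), 20 ng/ml, with 2 libraries in each of the 6 groups. IL4 is a cytokine that drives macrophages toward alternative activation. The 0 h libraries are the only untreated ones, so exposure to IL4 and time after the change of medium cannot be told apart in any comparison of hours. The labels give no allele and no Cre driver for the BMDM. The other 8 libraries were made from macrophages of tumours (TAM). Male C57BL/6J mice, 6 to 8 weeks old, received YUMM1.7 cells under the skin, and 4 weeks later CD11b+F4/80+ cells were sorted from the melanomas. YUMM1.7 is a mouse melanoma line. The 4 wild-type TAM libraries (numbered 1, 2, 7 and 8) came from mice that were LysMcre wt/wt, Tet2 fl/fl, and the 4 labelled knockout (numbered 3 to 6) from mice that were LysMcre +/wt, Tet2 fl/fl. In those mice the floxed alleles are shared by both groups, and the deletion is expected only in myeloid cells that have made the Cre. The BMDM replicates are described as biological, whereas nothing ties each TAM library to 1 animal, so p-values measure the spread between these libraries.

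Entry into mitosis depends on cyclin-dependent kinase 1 bound to cyclin A or B. The transcripts of its partners and of most of the machinery that condenses chromosomes, builds the spindle and divides the cell rise together in G2, under a programme that the factors MYBL2 and FOXM1 drive and that the DREAM repressor complex holds down in resting cells. DREAM and its relatives act through a promoter element called the cell cycle genes homology region (CHR), usually with CCAAT boxes nearby, while genes of DNA replication rise earlier through E2F sites. Macrophages grown in M-CSF divide, and most leave the cycle when the growth factor is withdrawn. RNA of a whole culture or sort is an average, so a larger number of dividing cells and more RNA per dividing cell cannot be told apart in any value below.

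Levels are FPKM, fragments scaled by transcript length and by the mapped total of the library, which hold no counts, so absolute depth is unknown. Relative depth, read from the smallest steps between low values, ran from 0.842 to 1.38 times that of the first library in BMDM and from 0.211 to 1.0 in TAM, where the lowest was labelled knockout library 5. Tet2 itself did not separate the genotypes: it ran from 4.11 to 9.82 FPKM in wild-type and from 4.02 to 11.3 FPKM in labelled knockout BMDM, and from 7.75 to 16.1 against 14.4 to 19.0 FPKM in TAM, and it passed the test between genotypes at no time and not in TAM. A value for a whole gene does not show a deletion of part of it, and the labels do not say which part was removed, so the genotypes stand here as labelled. The 8 macrophage markers, among them Csf1r, Cd68 and Lyz2, were detected in every library. In the BMDM, the summed level of 8 fibroblast markers was 9.24 and 9.46 FPKM in the labelled knockout libraries against 2.45 and 2.43 FPKM in wild type at 24 h, and the macrophage sum was 7312 and 7375 against 9743 and 11376 FPKM.

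Promoter sequences of members are shown because 25 of the 32 members with a sequence hold the core of the CHR. A promoter window, 250 bases before to 50 bases after the annotated start, was matched by symbol in RefSeq (GRCm38.p6) for 32 of the 40 members. The windows were searched on both strands for the CHR core, TTTGAA, and for CCAAT, and an overlap of the motifs did not remove a match. The lines below give the 120 bases just before the start on the gene's own strand, 5′ to 3′. Capitals mark TTTGAA or its reverse complement TTCAAA, and CCAAT or its reverse complement ATTGG. Cdk1 (chr10:69352913-69353032, minus strand), Top2a (chr11:99024190-99024309, minus), Kif11 (chr19:37376262-37376381, plus) and Cdc20 (chr4:118437344-118437463, minus) stand for members that rose in both genotypes. Cenpa (chr5:30666766-30666885, plus) fell in both, and Bub3 (chr7:131560250-131560369, plus, the upstream window of 2 in the table) differed by 0.34 in wild type and 0.08 in the labelled knockout between 0 and 24 h on the log2 scale used below. Birc5 (chr11:117849117-117849236, plus) rose and has neither motif in these bases.
Cdk1: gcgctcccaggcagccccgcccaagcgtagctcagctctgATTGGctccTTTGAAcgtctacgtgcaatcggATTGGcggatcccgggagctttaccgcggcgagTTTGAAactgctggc
Top2a: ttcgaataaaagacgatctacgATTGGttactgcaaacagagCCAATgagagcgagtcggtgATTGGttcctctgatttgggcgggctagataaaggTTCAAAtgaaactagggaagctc
Kif11: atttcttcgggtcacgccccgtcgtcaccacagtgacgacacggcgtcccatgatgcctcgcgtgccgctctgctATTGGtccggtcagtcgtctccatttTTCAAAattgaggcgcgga
Cdc20: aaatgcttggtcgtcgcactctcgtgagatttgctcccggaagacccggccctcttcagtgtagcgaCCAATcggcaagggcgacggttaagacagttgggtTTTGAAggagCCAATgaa
Cenpa: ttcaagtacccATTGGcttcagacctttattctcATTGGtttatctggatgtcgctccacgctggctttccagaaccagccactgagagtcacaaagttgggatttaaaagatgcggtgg
Bub3: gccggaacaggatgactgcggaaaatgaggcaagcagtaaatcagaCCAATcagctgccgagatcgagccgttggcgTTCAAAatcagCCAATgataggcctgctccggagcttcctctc
Birc5: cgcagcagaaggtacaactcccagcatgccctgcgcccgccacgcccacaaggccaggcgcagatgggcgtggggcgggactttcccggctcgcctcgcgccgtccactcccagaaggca
Cdk1 has 2 copies of the CHR core before its start, each with an inverted CCAAT box upstream of it. The core of Cenpa lies after the start and outside the printed bases.

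In the BMDM the mitotic genes were low at 0 h, were as low at 10 h, and were higher at 24 h of IL4 in both genotypes, most of all in the labelled knockout. The median member stood at 0.688 and 0.538 FPKM in the wild-type libraries at 0 h, at 0.631 and 0.502 FPKM at 10 h and at 1.76 and 1.63 FPKM at 24 h. In the labelled knockout the median was 0.870 FPKM in both libraries at 0 h, 0.799 and 0.848 FPKM at 10 h and 2.74 and 3.30 FPKM at 24 h. The wild-type medians were thus below those of the labelled knockout at each hour, without overlap. At 1 FPKM or more were 14 of the 40 members in both wild-type libraries at 0 h, 17 and 18 in those labelled knockout at that time, 29 and 31 in wild type at 24 h, and 35 in both labelled knockout libraries at 24 h. Of the 40 members, 37 had their highest value in a 24 h library, which held for 40.9% of the genes tested, and 35 had it in a labelled knockout 24 h library, which held for 17.8%. The exceptions to the first count were Bub3, Cenpa and Kif23, joined in the second by Incenp and Smc4.

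**Figure D1:**
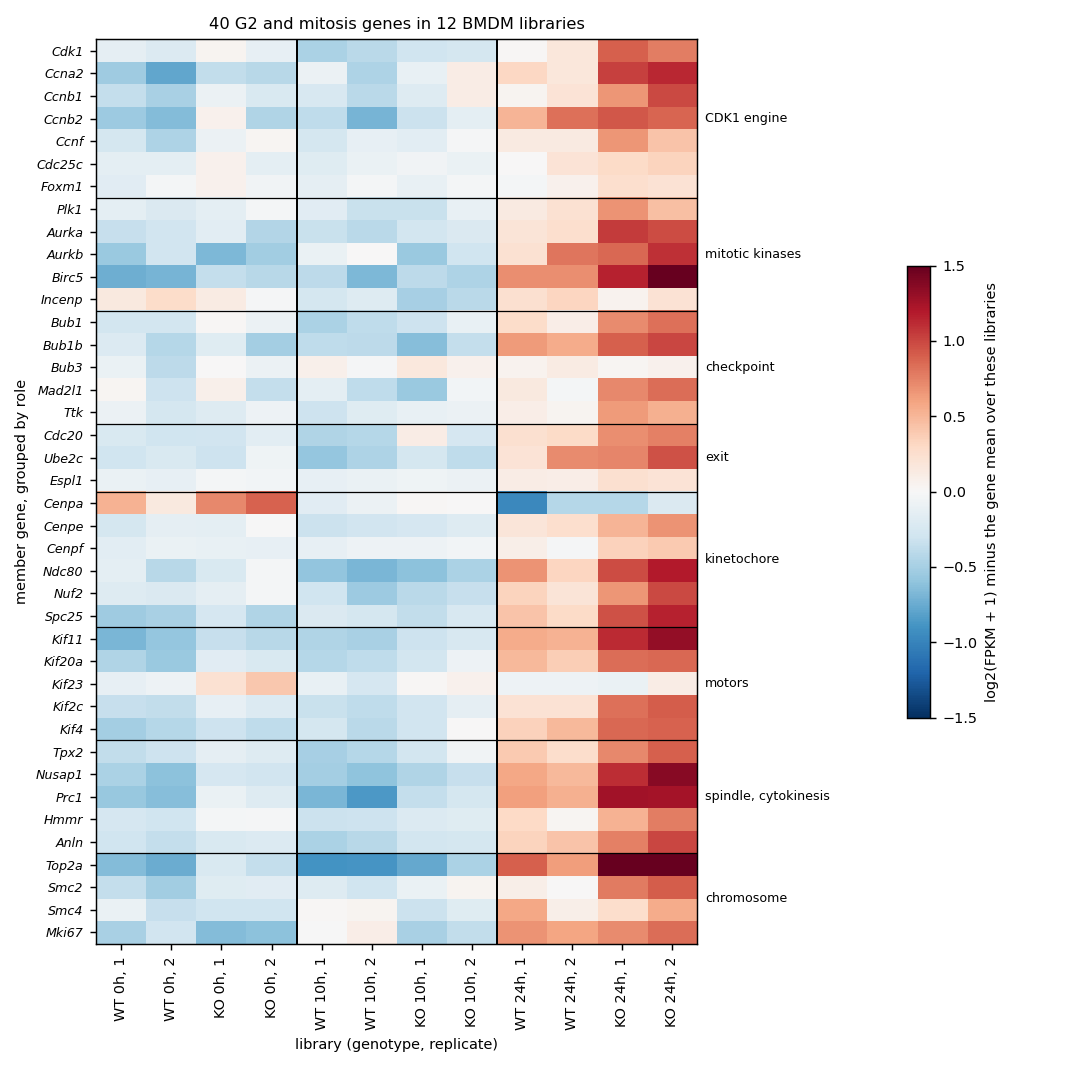
Each row is 1 of the 40 members grouped by role and each column 1 of the 12 BMDM libraries, and the colour is log2(FPKM + 1) minus the gene's mean over the libraries. The 24 h columns are the high ones for most rows, highest in the labelled knockout. Exceptions include Cenpa, which is lower at 24 h, Bub3, which varies little, and Kif23, which comes down in the labelled knockout.

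Genes were tested with limma on log2(FPKM + 1) when they reached 1 FPKM in at least 2 libraries, with p-values adjusted over all 10510 genes tested and a threshold of 0.05. Differences below are on that log2 scale, with limma's SE, and understate the change of genes near or under 1 FPKM. Counts at an unadjusted p under 0.05 are given for members and gene lists only. The shares of all genes called are at the adjusted threshold, so the 2 are not to be set against each other. Cdc25c, Cenpf, Espl1, Foxm1 and Ttk stayed below the minimum, which left 35 members. Of these, 6 (Plk1, Bub1, Ube2c, Cenpe, Kif2c and Kif4) reached it only through the labelled knockout 24 h libraries. Only 17 reached it without any 24 h library, so part of the tested members had to be higher at 24 h. Between 24 and 0 h, 31 of the 35 rose and 1 fell in wild type, where 50.0% of all genes passed in either direction and 29.7% rose. In the labelled knockout 31 rose and 2 fell, against 43.7% of all genes in either direction and 26.5% higher. The median difference of the members was 0.58 in wild type and 1.03 in the labelled knockout, against 0.06 and 0.07 over all genes. Among the 17 members that did not need a 24 h library, 13 rose and 1 fell in wild type, with a median of 0.54, and 13 rose and 2 fell in the labelled knockout, with a median of 0.99. Fitted without the filter, all 40 members gave 34 higher and 1 lower in wild type and 36 higher and 1 lower in the labelled knockout, where 16.0% and 14.6% of all genes were higher, and the 5 low members were called higher in the latter.

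Between 24 and 10 h, 28 members rose and 1 fell in wild type, against 25.9% of all genes called in either direction and 11.6% higher. In the labelled knockout 32 rose and 0 fell by limma, where 32 had an unadjusted p under 0.05, against 23.0% of all genes in either direction and 12.1% higher. The median differences were 0.59 and 1.08, against -0.04 and -0.02 over all genes. The 24 h libraries are shared with the comparisons against 0 h, so the counts are not independent of those above.

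Labelled knockout exceeded wild type at 24 h for 21 of the 35 members and fell below it for 0, with 28 at an unadjusted p under 0.05 by limma. Over all genes 7.43% were called in either direction and 5.29% were higher. The 21 were Cdk1, Ccna2, Ccnb1, Aurka, Birc5, Bub1, Cdc20, Ndc80, Nuf2, Spc25, Kif11, Kif20a, Kif2c, Kif4, Tpx2, Nusap1, Prc1, Hmmr, Anln, Top2a and Smc2. The difference was above 0 for 33 of the 35, as for 57.0% of all genes, and its median was 0.48 against 0.04 over all genes. Of the 29 members that met the minimum without the labelled knockout 24 h libraries 18 were higher, and of the 17 that met it without any 24 h library 8 were, again with a median of 0.48. The count depended on the spread borrowed from other groups: fitted on the 4 libraries of 24 h alone, limma called 0 of the 35 members, with 26 at an unadjusted p under 0.05, and 32 genes in all. It was 9 with a pseudocount of 0.1 and 6 without labelled knockout library 2 of 24 h. Of the 21, 20 held after median-of-ratios scaling, which lost Ndc80. With quantile normalization 16 held, and Cdc20, Ndc80, Kif20a, Tpx2 and Hmmr were lost. Fibroblast markers moved with genotype in the same libraries, 3 of the 3 tested of 8 being higher in the labelled knockout at 24 h, as macrophage markers did, 3 of 8 being lower. Of the markers tested for other cell types, 1 of 1 for T and NK cells (Cd4), 1 of 2 for melanoma and 1 of 2 for endothelium were higher, and 1 of 5 for neutrophils was lower. The 3 fibroblast markers were also higher at 0 and 10 h, as Cd4 was, and macrophage markers gave 0 of 8 lower at 0 h and 3 at 10 h. The fibroblast sum at 0 h was 22.9 and 21.0 FPKM in the labelled knockout against 4.48 and 4.82 FPKM in wild type. At 10 h it was 19.6 and 20.4 against 4.97 and 4.31 FPKM. The part of these markers in the result was not tested.

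**Figure D2:**
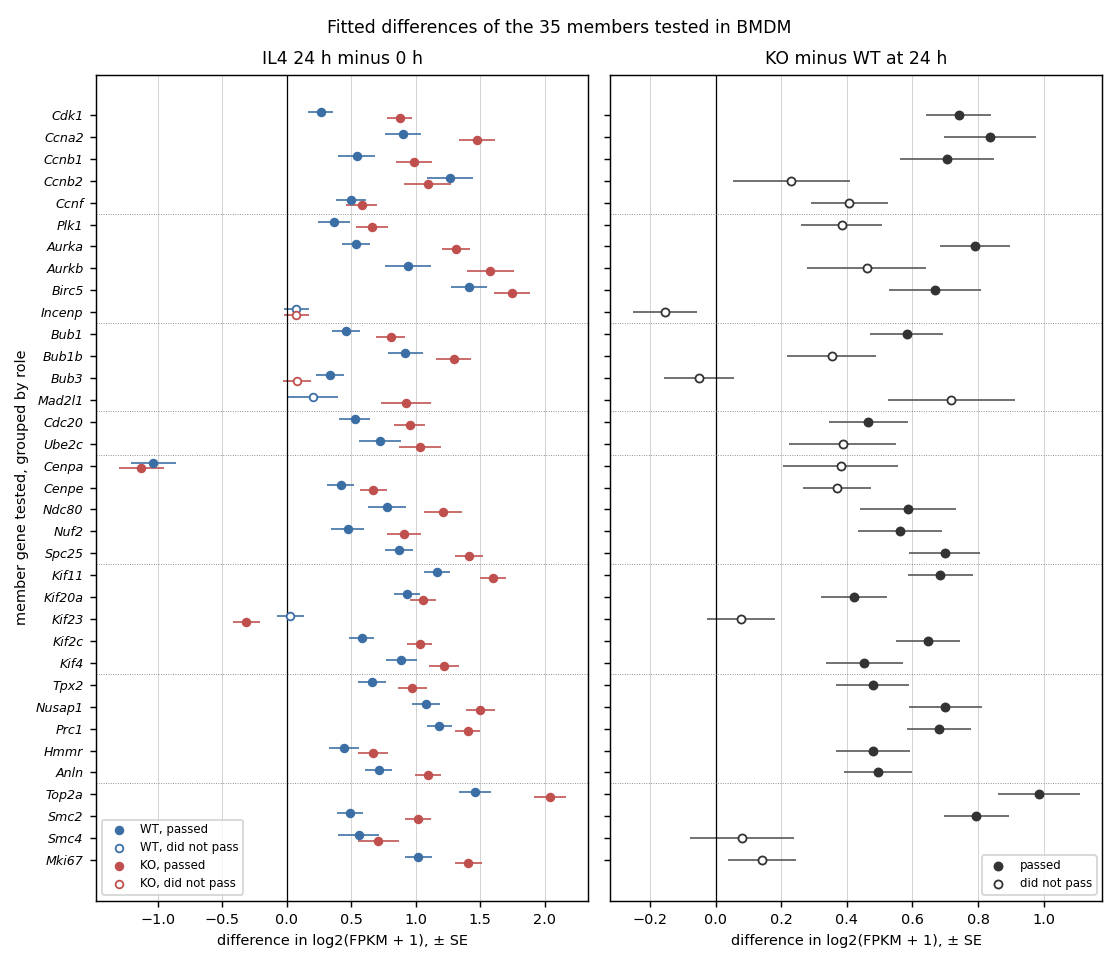
Differences in log2(FPKM + 1) of the 35 tested members, by role, with bars of 1 SE and filled symbols for members past the threshold: at left 24 h minus 0 h in each genotype, at right labelled knockout minus wild type at 24 h. The 24 h responses lie above 0 for nearly all members and the genotype difference for 33 of 35, with Cenpa below 0 at left in both genotypes, Kif23 in the labelled knockout, and Bub3 and Incenp at or below 0 at right.

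The engine list holds the kinase and cyclins of the switch into mitosis, with Cdc25c, Ccnf and Foxm1 listed beside them. All 5 tested members (Cdk1, Ccna2, Ccnb1, Ccnb2 and Ccnf) rose by 24 h in each genotype, with a median difference of 0.54 in wild type and 0.99 in the labelled knockout. Values are given per library, wild type before labelled knockout at each hour. Cdk1, the kinase itself, was at 2.55 and 2.37 against 3.01 and 2.56 FPKM at 0 h, 1.81 and 1.93 against 2.15 and 2.24 FPKM at 10 h, and 2.93 and 3.37 against 6.24 and 5.63 FPKM at 24 h. Its wild-type libraries at 24 h sat only a little above those at 0 h, while both labelled knockout libraries at 24 h stood clear of all the others. The rise was 0.26 ± 0.10 in wild type, with an adjusted p of 0.0488 that missed the threshold after median-of-ratios scaling, and 0.87 ± 0.10 in the labelled knockout (adjusted p = 5.18e-05). The wild-type call was also lost without the filter, with 1 FPKM required in every library, with the replicate number as a block and in the fit of the compared groups only. Leaving out either wild-type library of 0 h or wild-type library 2 of 24 h lost it too. At 24 h the labelled knockout was higher by 0.74 ± 0.10 (adjusted p = 0.00303). Ccnb2, a B-type cyclin, was at 0.326 and 0.242 against 1.03 and 0.424 FPKM at 0 h, 0.490 and 0.193 against 0.549 and 0.759 FPKM at 10 h, and 1.76 and 2.45 against 2.69 and 2.55 FPKM at 24 h. Here wild type rose about as far as the labelled knockout, by 1.27 ± 0.18 (adjusted p = 0.000229) and 1.09 ± 0.18 (adjusted p = 0.000649), and the genotype difference at 24 h of 0.23 ± 0.18 did not pass (adjusted p = 0.458). Cyclin A2 (Ccna2) and cyclin B1 (Ccnb1) passed between genotypes, and Ccnf, a cyclin F-box protein of the ubiquitin system, did not. Ccna2 ran from 1.36 to 7.91 FPKM over the 12 libraries and Ccnb1 from 0.922 to 4.37 FPKM. Ccna2 overlaps Exosc9 and Foxm1 overlaps Tex52, and use of strand in the counting is not stated, so their reads could be shared. The phosphatase Cdc25c, which activates Cdk1, was between 0 and 0.190 FPKM at 0 and 10 h, at 0.145 and 0.308 FPKM in wild type at 24 h and at 0.386 and 0.433 FPKM in the labelled knockout. Foxm1, the transcription factor of the programme, was at 0.172 and 0.259 against 0.423 and 0.398 FPKM at 24 h, and between 0.0683 and 0.253 FPKM before. Both were too low to test, and both were highest in the labelled knockout 24 h libraries.

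Among the mitotic kinases and the chromosomal passenger complex, 4 of 5 rose in each genotype, and 2 were higher in the labelled knockout at 24 h. Aurka, the centrosomal Aurora kinase, was at 0.708 and 0.786 against 0.946 and 0.603 FPKM at 0 h, 0.722 and 0.639 against 0.797 and 0.866 FPKM at 10 h, and 1.48 and 1.59 against 3.50 and 3.27 FPKM at 24 h. Its groups overlapped at 0 h and lay apart at 24 h. The response was 0.54 ± 0.11 in wild type (adjusted p = 0.00214) and 1.31 ± 0.11 in the labelled knockout (adjusted p = 4.92e-06), and the genotype difference at 24 h was 0.79 ± 0.11 (adjusted p = 0.00307). Aurka overlaps Cstf1, with the same limit. Incenp, the scaffold of the passenger complex, did not follow: it was at 5.49 and 6.10 against 5.41 and 4.82 FPKM at 0 h, 3.89 and 4.12 against 3.15 and 3.43 FPKM at 10 h, and 5.95 and 6.36 against 5.07 and 5.81 FPKM at 24 h. It was low at 10 h in both genotypes and back near its starting level at 24 h, where the genotypes differed by -0.15 ± 0.10 (adjusted p = 0.363). Aurkb, the kinase of the same complex, ran from 1.20 to 6.46 FPKM and Birc5 (survivin), another subunit, from 0.432 to 6.09 FPKM. Both rose in each genotype, as did the Polo-like kinase Plk1, whose levels ran from 0.198 to 1.43 FPKM, and between genotypes Birc5 passed while Aurkb and Plk1 did not.

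The spindle checkpoint holds anaphase until chromosomes are attached. Of its 4 tested members, Bub1 and Bub1b rose in both genotypes, Bub3 only passed in wild type and Mad2l1 only in the labelled knockout, and the difference of those responses was not called for any of them. Bub1, a checkpoint kinase, was at 0.183 and 0.181 against 0.445 and 0.344 FPKM at 0 h, 0.0298 and 0.1003 against 0.151 and 0.320 FPKM at 10 h, and 0.726 and 0.529 against 1.34 and 1.53 FPKM at 24 h. The labelled knockout libraries were above wild type at every hour. It rose by 0.46 ± 0.11 (adjusted p = 0.00621) and 0.80 ± 0.11 (adjusted p = 0.000213), and differed by 0.58 ± 0.11 between genotypes at 24 h (adjusted p = 0.0144), a call lost with a pseudocount of 0.1 (adjusted p = 0.106). That call was lost too in the limma fit of the compared groups only (adjusted p = 0.121). Leaving out wild-type library 2 or either labelled knockout library of 24 h also lost it. Bub1, the only checkpoint member called between genotypes, reached the minimum only through the labelled knockout 24 h libraries. Bub3, a checkpoint adaptor, was among the most abundant members and varied little: 24.5 and 19.9 against 26.5 and 24.8 FPKM at 0 h, 27.8 and 26.1 against 29.6 and 27.7 FPKM at 10 h, and 27.5 and 28.9 against 26.8 and 27.5 FPKM at 24 h. Its wild-type rise of 0.34 ± 0.11 (adjusted p = 0.0237) was lost with quantile normalization (adjusted p = 0.179), and the genotype difference at 24 h was -0.05 ± 0.11 (adjusted p = 0.812). Bub1b (BUBR1) ran from 0.800 to 4.61 FPKM and Mad2l1 (MAD2) from 1.30 to 5.04 FPKM, and neither passed between genotypes. The kinase Ttk (MPS1) was below the test's minimum, at no more than 0.179 FPKM at 0 and 10 h, 0.331 and 0.282 FPKM in wild type at 24 h and 0.942 and 0.799 FPKM in the labelled knockout.

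Mitotic exit is driven by the anaphase-promoting complex. Cdc20, its activator, was at 0.860 and 0.778 against 0.793 and 0.952 FPKM at 0 h, 0.596 and 0.622 against 1.36 and 0.836 FPKM at 10 h, and 1.58 and 1.66 against 2.55 and 2.70 FPKM at 24 h. The 24 h libraries were above all earlier ones, with the labelled knockout on top. It rose by 0.53 ± 0.12 (adjusted p = 0.0043) and 0.95 ± 0.12 (adjusted p = 0.000104), and its genotype difference at 24 h, 0.47 ± 0.12, was close to the threshold (adjusted p = 0.0416). That call held after median-of-ratios scaling and was lost with quantile normalization (adjusted p = 0.0704), a pseudocount of 0.1, no filter or the replicate number as a block. It was also lost in the fit of the compared groups only (adjusted p = 0.135) and on leaving out any single library of 24 h. Cdc20 overlaps Elovl1. Ube2c, the ubiquitin-conjugating enzyme of the complex, was at 0.277 and 0.341 against 0.270 and 0.501 FPKM at 0 h, 0.0562 and 0.142 against 0.310 and 0.209 FPKM at 10 h, and 0.817 and 1.57 against 1.61 and 2.06 FPKM at 24 h. The higher wild-type library at 24 h nearly reached the lower labelled knockout one. It rose by 0.72 ± 0.16 (adjusted p = 0.00404) and 1.03 ± 0.16 (adjusted p = 0.000489), and the genotype difference of 0.39 ± 0.16 did not pass (adjusted p = 0.168). Espl1, the separase that cleaves cohesin, stayed between 0.0876 and 0.392 FPKM and was not tested, with 0.280 and 0.267 FPKM in wild type and 0.392 and 0.367 FPKM in the labelled knockout at 24 h.

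At the kinetochore, 4 of the 5 tested members rose in each genotype and Cenpa fell. Spc25, a subunit of the NDC80 complex that binds microtubules, was at 1.52 and 1.61 against 2.06 and 1.67 FPKM at 0 h, 2.15 and 2.04 against 1.83 and 2.10 FPKM at 10 h, and 3.91 and 3.48 against 6.09 and 7.15 FPKM at 24 h. It rose by 0.87 ± 0.11 (adjusted p = 0.000101) and 1.41 ± 0.11 (adjusted p = 3.11e-06), and at 24 h the labelled knockout was higher by 0.70 ± 0.11 (adjusted p = 0.00606; 0.0609 without labelled knockout library 2 of 24 h). Ndc80 and Nuf2, of the same complex, passed between genotypes too, with ranges of 0.285 to 3.71 and 0.494 to 3.33 FPKM. Cenpe, a kinetochore motor, rose in both genotypes and did not pass between them, with a range of 0.146 to 1.27 FPKM.

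Cenpa, the histone H3 variant that marks the centromere, ran the other way. It was at 30.8 and 23.6 against 35.7 and 40.1 FPKM at 0 h, 18.8 and 19.9 against 21.4 and 21.4 FPKM at 10 h, and 10.3 and 15.4 against 15.5 and 18.1 FPKM at 24 h. Every 24 h library was below every library of 10 h and 0 h. The fall from 0 to 24 h was -1.03 ± 0.17 in wild type (adjusted p = 0.000734) and -1.13 ± 0.17 in the labelled knockout (adjusted p = 0.000435), and from 0 to 10 h it was -0.80 ± 0.17 in the labelled knockout (adjusted p = 0.00452). The wild-type value at 10 h, -0.46 ± 0.17, missed the threshold (adjusted p = 0.055) and passed after median-of-ratios scaling (adjusted p = 0.0068), with quantile normalization (adjusted p = 0.00164) and with 1 FPKM required in every library (adjusted p = 0.042). The genotype difference at 24 h, 0.38 ± 0.17, did not pass (adjusted p = 0.203). Cenpf, a large kinetochore protein, was too low to test, with at most 0.240 FPKM at 0 and 10 h, 0.362 and 0.261 FPKM in wild type at 24 h and 0.621 and 0.678 FPKM in the labelled knockout.

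Of the 5 motors, 4 rose in each genotype and the same 4 (Kif11, Kif20a, Kif2c and Kif4) were higher in the labelled knockout at 24 h. Kif2c and Kif4 reached the minimum only through the labelled knockout 24 h libraries, and of the 3 motors that met it without those libraries 2 were higher. Kif11, the motor that pushes spindle poles apart, was at 0.238 and 0.327 against 0.564 and 0.491 FPKM at 0 h, 0.454 and 0.420 against 0.594 and 0.678 FPKM at 10 h, and 1.91 and 1.84 against 3.31 and 3.96 FPKM at 24 h. It rose by 1.17 ± 0.10 (adjusted p = 6.72e-06) and 1.60 ± 0.10 (adjusted p = 6.53e-07) and differed by 0.68 ± 0.10 between genotypes (adjusted p = 0.00437). Kif23, a motor of the central spindle, was level in wild type: 2.16 and 2.27 against 3.05 and 3.55 FPKM at 0 h, 2.19 and 1.90 against 2.48 and 2.61 FPKM at 10 h, and 2.27 and 2.28 against 2.21 and 2.71 FPKM at 24 h. Its labelled knockout libraries began higher and came down to the wild-type level, by -0.31 ± 0.10 (adjusted p = 0.031), a call lost without the filter (adjusted p = 0.0596), while wild type differed by 0.03 ± 0.10 (adjusted p = 0.845). Kif20a, a cytokinesis motor that overlaps Brd8 and Cdc23, ran from 0.338 to 2.56 FPKM, the microtubule depolymerase Kif2c from 0.0591 to 1.59 FPKM and the chromokinesin Kif4 from 0.0711 to 1.80 FPKM. The genotype call of Kif20a was lost with quantile normalization.

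All 5 genes of the spindle and of cytokinesis (Tpx2, Nusap1, Prc1, Hmmr and Anln) rose in both genotypes and were higher in the labelled knockout at 24 h. Prc1, which bundles microtubules between the separating chromosomes, was at 0.602 and 0.527 against 1.22 and 1.08 FPKM at 0 h, 0.484 and 0.314 against 0.850 and 0.981 FPKM at 10 h, and 2.64 and 2.45 against 4.71 and 4.65 FPKM at 24 h. At each hour both labelled knockout libraries were above both wild-type ones. It rose by 1.18 ± 0.10 (adjusted p = 5.21e-06) and 1.40 ± 0.10 (adjusted p = 1.47e-06), with a genotype difference at 24 h of 0.68 ± 0.10 (adjusted p = 0.00402). Hmmr, a spindle assembly protein, was at 0.854 and 0.796 against 1.17 and 1.18 FPKM at 0 h, 0.772 and 0.781 against 0.921 and 0.955 FPKM at 10 h, and 1.72 and 1.26 against 2.19 and 2.76 FPKM at 24 h. Its differences were smaller, 0.44 ± 0.11 (adjusted p = 0.00837), 0.67 ± 0.11 (adjusted p = 0.000845) and, between genotypes, 0.48 ± 0.11 (adjusted p = 0.0324), the last lost with quantile normalization (adjusted p = 0.0627). The genotype call was also lost with a pseudocount of 0.1, without the filter and in the fit of the compared groups only (adjusted p = 0.0532, 0.0513 and 0.206). Tpx2, which activates Aurora A, ran from 0.269 to 2.33 FPKM, the microtubule-associated Nusap1 from 0.148 to 3.51 FPKM and the cytokinetic scaffold anillin (Anln) from 0.228 to 2.41 FPKM. The genotype call of Tpx2 was lost with quantile normalization. Prc1 overlaps Rccd1, Nusap1 overlaps Oip5 and Anln overlaps 9530077C05Rik.

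The 4 chromosome genes rose in both genotypes and only Top2a and Smc2 passed between them. Smc2, a core subunit of condensin, was at 3.34 and 2.86 against 3.90 and 3.95 FPKM at 0 h, 3.86 and 3.51 against 4.18 and 4.70 FPKM at 10 h, and 4.92 and 4.57 against 8.52 and 9.42 FPKM at 24 h. It rose by 0.49 ± 0.10 (adjusted p = 0.00232) and 1.01 ± 0.10 (adjusted p = 1.75e-05), and its genotype difference at 24 h was 0.79 ± 0.10 (adjusted p = 0.00203). Smc4, its partner in the same ring, was at 14.6 and 12.1 against 12.6 and 12.6 FPKM at 0 h, 15.9 and 16.2 against 12.4 and 13.7 FPKM at 10 h, and 23.9 and 16.8 against 19.1 and 23.7 FPKM at 24 h. The 24 h groups of Smc4 overlapped, and the genotypes differed there by 0.08 ± 0.16 (adjusted p = 0.791), while its rises of 0.56 ± 0.16 (adjusted p = 0.0144) and 0.71 ± 0.16 (adjusted p = 0.0045) passed, the former not with quantile normalization (adjusted p = 0.0732). Per-library values of Top2a and Mki67 were added after their values were seen. Top2a, the topoisomerase that untangles sister chromatids, was at 1.73 and 1.54 against 2.63 and 2.34 FPKM at 0 h, 1.29 and 1.30 against 1.51 and 2.07 FPKM at 10 h, and 6.94 and 5.56 against 12.6 and 14.0 FPKM at 24 h. Its steepest step therefore fell between 10 and 24 h in both genotypes, at 1.65 ± 0.13 (adjusted p = 1.86e-05) and 2.36 ± 0.13 (adjusted p = 2.24e-06). Mki67, the proliferation marker Ki-67, was at 0.799 and 1.07 against 0.609 and 0.649 FPKM at 0 h, 1.51 and 1.71 against 0.803 and 0.954 FPKM at 10 h, and 3.02 and 2.81 against 3.12 and 3.52 FPKM at 24 h. At 10 h its wild-type libraries were above the labelled knockout ones, as those of Smc4 were, while Top2a and Smc2 had the opposite order.

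**Figure D3:**
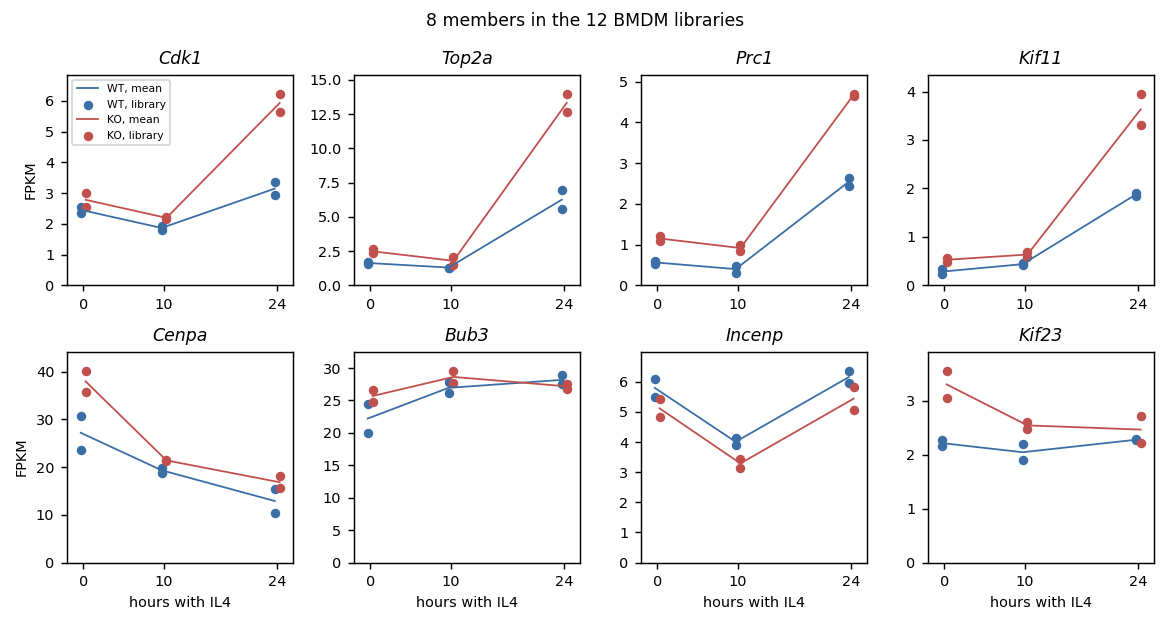
FPKM of 8 members against hours of IL4 (0, 10 and 24), with 1 point per library and lines through the means of 2 libraries, for both genotypes. Cdk1, Top2a, Prc1 and Kif11 step up after 10 h, further in the labelled knockout, Cenpa is lower at each later hour, Incenp ends near its 0 h level, Bub3 stays between 19.9 and 29.6 FPKM, and Kif23 comes down in the labelled knockout.

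At 10 h of IL4 few members had moved. In wild type 1 rose and 2 fell of 35, against 42.4% of all genes called in either direction, with a median difference of -0.06 against 0.09 over all genes. Mki67 rose, by 0.43 ± 0.10 (adjusted p = 0.00712), and Incenp and Cdk1 fell, by -0.44 ± 0.10 (adjusted p = 0.00498) and -0.27 ± 0.10 (adjusted p = 0.0495). The Cdk1 call was lost with quantile normalization (adjusted p = 0.0501), which also moved the median of all genes by -0.11 and called 2 members higher and 5 lower. That Cdk1 call was lost too without the filter, with the replicate number as a block, in the fit of the compared groups only and on leaving out any single library of either group. In the labelled knockout 1 rose and 3 fell, against 38.8% of all genes, with a median of -0.05 against 0.06. Ccna2 rose there, and Incenp fell by -0.51 ± 0.10 (adjusted p = 0.00223), Cenpa by the amount given above and Ndc80 by -0.42 ± 0.15 (adjusted p = 0.0437). By limma the Ndc80 call was lost without the filter (adjusted p = 0.0888) and with the replicate number as a block (adjusted p = 0.0575). Leaving out any single library of either group lost it too, and the Ccna2 call was lost after median-of-ratios scaling. Incenp turned after 10 h, with 0.51 ± 0.10 to 24 h in wild type (adjusted p = 0.00403) and 0.58 ± 0.10 in the labelled knockout (adjusted p = 0.00186).

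Before 24 h the genotypes differed for few single members, although the signs leaned to the labelled knockout. At 0 h only Prc1 passed of 35, by 0.46 ± 0.10 (adjusted p = 0.0343), against 2.70% of all genes, and 13 members had an unadjusted p under 0.05. The difference was above 0 for 30 of the 35, as for 63.4% of all genes, with a median of 0.17 against 0.06. Kif23 had 0.42 ± 0.10 (adjusted p = 0.0674). At 10 h Prc1 was higher by 0.46 ± 0.10 (adjusted p = 0.033) and Mki67 lower by -0.47 ± 0.10 (adjusted p = 0.0386), against 2.84% of all genes, and 28 of 35 differences were above 0, with a median of 0.14 against 0.01. The Prc1 calls at 0 and 10 h were lost with quantile normalization (adjusted p = 0.117 and 0.0519), and that of Mki67 after median-of-ratios scaling (adjusted p = 0.0504).

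Whether the 24 h response itself differed between genotypes was tested by the interaction, the labelled knockout's change from 0 to 24 h minus that of wild type. Limma called 0 of the 35 members, with 16 at an unadjusted p under 0.05, and 0.295% of all genes. The interaction was above 0 for 30 members, as for 47.8% of all genes, and its median was 0.38 against -0.02 over all genes. Adding 1 to the FPKM shrinks a rise more where it starts lower. At 0 h the genotype difference was above 0 for 30 of the 35 members, so wild type mostly started lower. The sign of the interaction on this scale therefore does not give the order of the fold changes. The smallest p belonged to Aurka, at 0.78 ± 0.15 (adjusted p = 0.0618), followed by Cdk1 at 0.61 ± 0.14 (adjusted p = 0.0884) and Smc2 at 0.53 ± 0.14 (adjusted p = 0.122). Aurka passed after median-of-ratios scaling (adjusted p = 0.0484) and with quantile normalization (adjusted p = 0.0417), and no other member did under either. Without wild-type library 1 of 0 h, 2 members passed, Aurka (adjusted p = 0.0222) and Cdk1 (adjusted p = 0.0436). The interaction of Incenp was -0.00 ± 0.14 (adjusted p = 0.998) and that of Kif23 -0.34 ± 0.15 (adjusted p = 0.257). A larger response of the mitotic genes in the labelled knockout was therefore not established gene by gene.

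Other genes of the mitotic pathway are read against the same shares of all genes, 29.7% higher by 24 h in wild type, 26.5% in the labelled knockout and 5.29% between genotypes. Of 129 further genes in 6 lists, 109 were tested, and by 24 h 45 rose and 14 fell in wild type, 50 rose and 6 fell in the labelled knockout, and 29 were higher and 0 lower in the labelled knockout at 24 h, with 52 at an unadjusted p under 0.05 by limma. Their median differences were 0.25, 0.31 and 0.22. Of the spindle and cytokinesis genes outside the 40, 16 of 19 were higher by 24 h in each genotype and 9 between genotypes. Among these, Pbk, a mitotic kinase, rose by 1.07 ± 0.10 (adjusted p = 1.84e-05) and 1.52 ± 0.10 (adjusted p = 1.39e-06), and was higher by 0.79 ± 0.10 in the labelled knockout (adjusted p = 0.00291). Kinetochore genes gave 8 of 22 in wild type, 14 in the labelled knockout and 8 between genotypes, where Zwilch, of the RZZ checkpoint complex, had the smallest p, with 0.73 ± 0.11 (adjusted p = 0.00478). Of 24 further genes of the anaphase-promoting complex and sister cohesion, 8 rose and 1 fell in wild type, 5 rose and 2 fell in the labelled knockout, and 3 were higher between genotypes. In wild type the kinetochore genes and those of the anaphase-promoting complex and cohesion were thus near the share of all genes. Part of the genes in the 6 lists reached the minimum only through the labelled knockout 24 h libraries. Of the 92 that met it without those libraries, 34 rose and 6 fell in the labelled knockout by 24 h. Of 14 such kinetochore genes, 7 rose there and 3 were higher between genotypes. Of 14 such spindle and cytokinesis genes, 11 rose there and 6 were higher between genotypes.

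Condensin subunits outside the 40 split. Ncapg, of condensin I, rose by 0.78 ± 0.13 (adjusted p = 0.000657) and 1.38 ± 0.13 (adjusted p = 1.32e-05). Ncapg2, of condensin II, fell by -2.87 ± 0.12 (adjusted p = 3.91e-08) and -2.62 ± 0.12 (adjusted p = 7.93e-08). Cell cycle regulators that act before mitosis were mixed too, with 8 higher and 5 lower of 22 in wild type, near the share of all genes, and 10 and 3 in the labelled knockout. Cks1b, a small subunit that binds cyclin-dependent kinases, rose by 1.72 ± 0.12 (adjusted p = 1.13e-06) and 1.67 ± 0.12 (adjusted p = 1.36e-06). Gadd45a, a stress-induced inhibitor of the G2 kinase, fell by -1.98 ± 0.14 (adjusted p = 1.77e-06) and -2.91 ± 0.14 (adjusted p = 1.04e-07). Cyclin D1 (Ccnd1), which acts in G1, gave the smallest p of the regulators between genotypes, at 1.11 ± 0.11 (adjusted p = 0.000653). Of 16 tested genes of the DREAM complex and the E2F family, 3 rose, a smaller share than that of all genes, and 5 fell in wild type, 3 rose and 0 fell in the labelled knockout, where 4 had an unadjusted p under 0.05 by limma, and 3 were higher between genotypes.

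The mitotic genes and a list of 25 genes of DNA replication and S phase gave similar medians. Of its 24 tested genes, 16 rose and 0 fell in wild type, with 18 at an unadjusted p under 0.05 by limma, 22 rose and 1 fell in the labelled knockout, and 13 were higher in the labelled knockout at 24 h, with medians of 0.61, 0.86 and 0.54. The mitotic members gave 0.58, 1.03 and 0.48 in the same comparisons, and no test between the lists was made. Rrm2, a subunit of ribonucleotide reductase, was the only gene of that list with an interaction past the threshold, at 0.94 ± 0.15 (adjusted p = 0.0369).

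In TAM the mitotic genes were at a median of 3.10, 2.54, 2.05 and 4.73 FPKM in wild-type libraries 1, 2, 7 and 8 and of 2.77, 2.47, 8.23 and 8.06 FPKM in labelled knockout libraries 3, 4, 5 and 6. Labelled knockout libraries 5 and 6 were thus far above all others, while libraries 3 and 4 lay within the wild-type range. Limma called 0 of 37 tested members between genotypes, with 1 (Kif23) at an unadjusted p under 0.05, and 0.101% of all genes. The difference was above 0 for 34 of the 37, as for 61.9% of all genes, and its median was 0.46 against 0.09 over all genes. Of the 40 members, 36 had their highest value in library 5 or 6, which held for 27.0% of the genes tested, and for 31 members libraries 5 and 6 were the 2 highest, which held for 12.1%. The exceptions to the first count, Ccnb2, Cdc20, Espl1 and Anln, were highest in wild-type library 8.

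The direction in TAM rested on labelled knockout libraries 5 and 6. Left out, an alternative added after the data were seen, 31 of the 37 differences were below 0 and 6 above, with a median of -0.24 and 0 members called by limma, 0 having an unadjusted p under 0.05. Over all genes 0.0101% were called there, 59.1% were above 0 and the median was 0.09. Most members were highest in libraries 5 and 6, so leaving these out had to lower most differences, and the members are not independent of each other. Among libraries 1 to 4, 28 were below 0, with a median of -0.11, 0 called by limma and 4 at an unadjusted p under 0.05, while 6.41% of all genes were called and 62.1% were above 0. Among libraries 5 to 8 all 37 were above 0, with a median of 1.03, 0 called by limma and 21 at an unadjusted p under 0.05, while 0.0707% of all genes were called and 58.7% were above 0. The numbers 1 to 4 and 5 to 8 separate the libraries in another measure: the summed level of neutrophil markers was 3755 to 11186 FPKM in the former and 603 to 939 FPKM in the latter, and the labels do not say what the numbers mean. With library set as a term limma again called 0 members, 4 having an unadjusted p under 0.05, against 0.313% of all genes, with a median of 0.46. The splits by number and the fit with this term were also added after the data were seen. In libraries 5 and 6 the macrophage marker sum was 3236 and 3116 FPKM, against 5389 to 7771 FPKM in the others, and the endothelial sum was 49.7 and 50.5 FPKM against 5.25 to 22.6 FPKM, almost all of it Pecam1, with Cldn5 at 0 in every library. Melanoma markers summed to 5.22 to 9.85 FPKM over all 8 libraries, with Dct, Tyrp1 and Sox10 at 0 in each. Only Mitf and Ednrb of these 10 markers were high enough to test, and the same sum was higher in the BMDM, cultures without tumour cells, at 31.7 to 66.8 FPKM. The part of macrophage, endothelial, neutrophil and melanoma markers in the result was not tested, and library 5 is the shallowest.

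**Figure D4:**
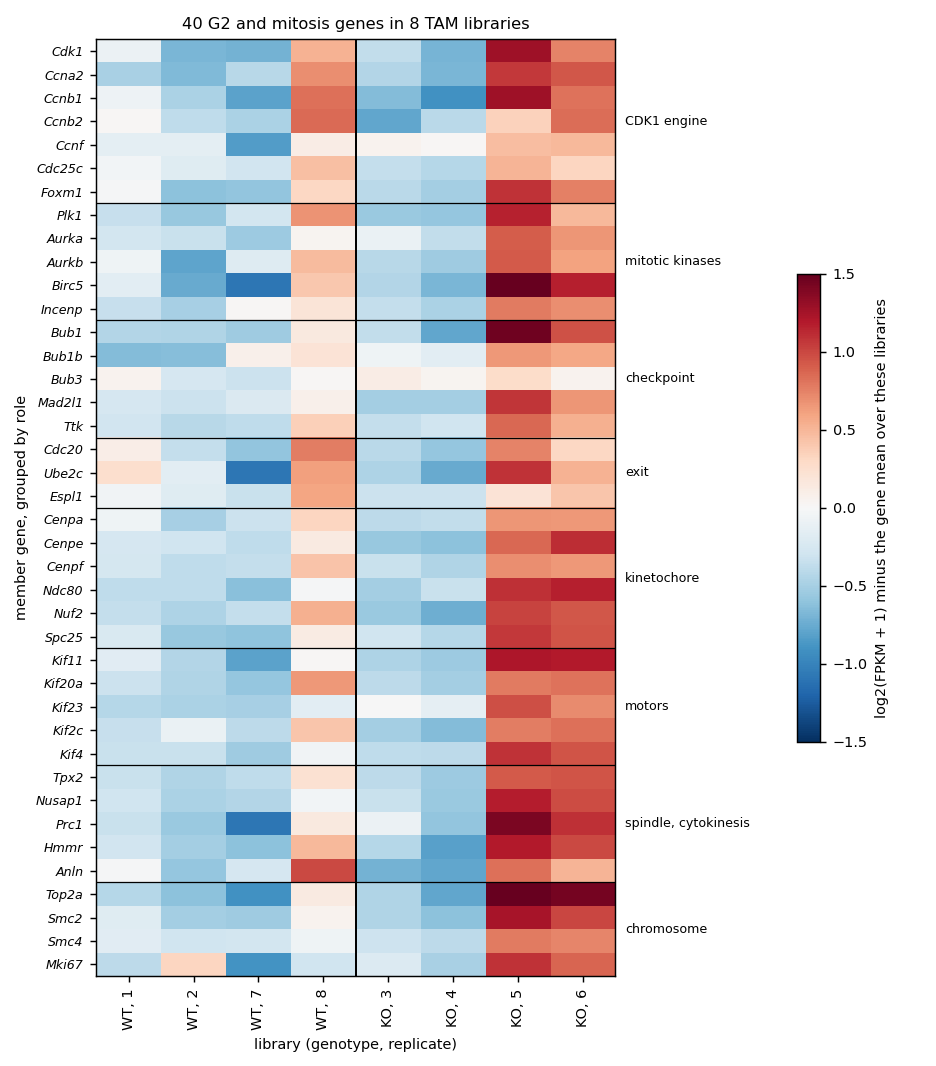
Rows are the 40 members by role and columns the 8 TAM libraries, with colour for log2(FPKM + 1) minus the gene's mean. Labelled knockout libraries 5 and 6 are high in nearly every row, wild-type library 8 is intermediate, and the other 5 libraries are low.

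Kif23, the only member whose TAM groups did not overlap, was at 3.96, 3.78, 3.72 and 4.97 FPKM in wild-type libraries 1, 2, 7 and 8 and at 5.64, 5.05, 12.02 and 9.89 FPKM in labelled knockout libraries 3 to 6. Over all genes 12.4% had groups that did not overlap. Its difference was 0.77 ± 0.25 (adjusted p = 0.203). Ccnf was at 2.31, 2.31, 1.05 and 2.96 FPKM in wild type and 2.80, 2.69, 4.03 and 4.13 FPKM in labelled knockout, a difference of 0.50 ± 0.22 (adjusted p = 0.297). Prc1 was at 4.03, 3.32, 2.00 and 6.01 against 4.96, 3.23, 15.9 and 12.6 FPKM, a difference of 0.91 ± 0.46 (adjusted p = 0.345). Aurka was at 3.02, 2.84, 2.34 and 4.02 against 3.55, 2.77, 8.11 and 6.68 FPKM, a difference of 0.55 ± 0.29 (adjusted p = 0.355). For Ccnf, Prc1 and Aurka libraries 5 and 6 led and the remaining labelled knockout libraries fell among the wild-type values.

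Further members are given to show how the same libraries stood. Cdk1 was at 4.69, 2.75, 2.70 and 7.63 FPKM in wild type and at 3.68, 2.72, 13.6 and 9.13 FPKM in labelled knockout, a difference of 0.48 ± 0.47 (adjusted p = 0.61). Kif11 was at 3.61, 2.81, 1.97 and 4.24 against 2.74, 2.54, 10.9 and 10.8 FPKM (0.69 ± 0.45, adjusted p = 0.438). Bub3 was at 18.6, 14.9, 14.1 and 18.1 against 19.4, 18.4, 21.8 and 18.6 FPKM (0.25 ± 0.13, adjusted p = 0.355) and varied least among these genes. Cenpa and Incenp, which did not rise with the others in BMDM, were high with them here: Cenpa was at 15.4, 11.2, 12.7 and 20.4 against 12.1, 12.3, 26.2 and 26.03 FPKM, and Incenp at 7.41, 6.58, 9.81 and 11.2 against 7.33, 6.69, 17.3 and 16.3 FPKM. Ccnb2 differed by -0.00 ± 0.41 (adjusted p = 0.995), with 6.26, 4.53, 4.16 and 11.96 against 3.18, 4.42, 8.10 and 11.9 FPKM, and wild-type library 8 at its top. The 3 untested members had their highest values in library 5: Cdc25c at 1.78, Cenpf at 2.06 and Ttk at 2.68 FPKM. Foxm1 and Espl1, too low in BMDM, reached 5.46 and 3.47 FPKM, the former in library 5 and the latter in wild-type library 8. Of the 129 further pathway genes, 105 were tested in TAM, and limma called 0, with 14 at an unadjusted p under 0.05 and a median of 0.24, and of 24 replication genes it called 0, with 2 at an unadjusted p under 0.05 and a median of 0.48.

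The CHR core was in the promoter window of 25 of the 32 members matched, 78.1%, against 20.2% of the 27025 genes with a window. Within 50 bases of the start it was present in 23 members, 71.9%, against 5.72% of all genes. A CCAAT box was in 78.1% of members and 41.1% of all genes, 2 or more in 53.1% and 13.3%, and both motifs in 68.8% and 7.97%. The replication genes held the core in 14.3% of windows and CCAAT in 61.9%, whereas 61.5% of the further spindle genes held the core. Presence of the core did not sort the members by their response. Of the members with a window, 13 of 18 that were higher in the labelled knockout at 24 h had it, 9 of 11 that did not pass and 3 of 3 not tested. Cenpa, which fell, and Bub3 both have it, while Ccnb1, Birc5, Bub1, Mad2l1, Cenpe, Nuf2 and Nusap1 do not, and of these all but Mad2l1 rose in both genotypes. No window was matched for Ccna2, Cdc25c, Foxm1, Aurkb, Incenp, Kif20a, Tpx2 and Smc4. A match describes letters in a window and is not evidence of binding.

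**Figure D5:**
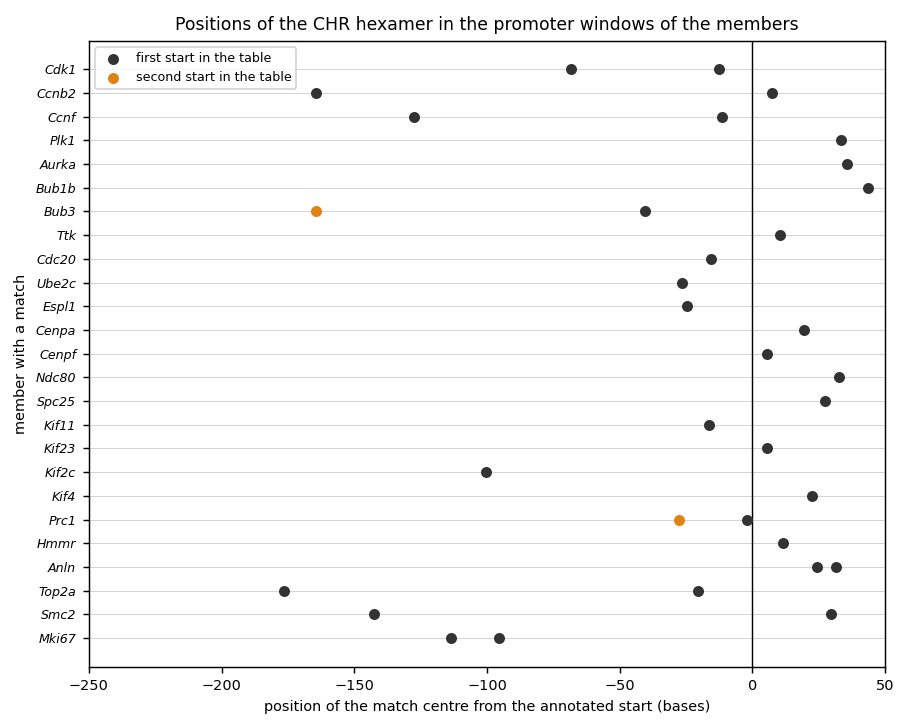
Positions of matches to the CHR core, on either strand, in bases from the annotated start for the members with a match, with a further start of the same gene in orange. Matches gather close to the start: 23 of the 25 members with the core have it within 50 bases.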

How the data were processed

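RNA was sequenced after depletion of ribosomal RNA (BMDM) or from polyadenylated RNA (TAM), per the labels' protocols, so the 2 tables were analysed apart. The values the authors deposited are FPKM. The submitters' processing notes name TopHat, the mm9 build and Cuffdiff, with versions, annotation and use of strand not given in the sources used here. The unit of the TAM table was taken from those notes. For 2 symbols listed more than 1 time the row with the higher mean was kept. The 4 libraries of 5-hydroxymethylcytosine were not analysed here.

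Values were analysed as log2(FPKM + 1) with limma 3.58.1 in R 4.3.3 (empirical Bayes with an intensity trend), on genes at 1 FPKM or more in at least 2 of 12 BMDM libraries (10510 genes, 6 groups fitted together) or 4 of 8 TAM libraries (9897 genes), with Benjamini-Hochberg adjustment over all genes tested and a threshold of 0.05. Each fit had 6 residual degrees of freedom and was tested on simulated data with known changes. The members, roles and lists were chosen with earlier results of these data known. Per-library values were given, in each role, for the tested members with the smallest and the largest p between genotypes at 24 h, for untested members and for the 4 smallest p in TAM, with Top2a, Mki67 and further TAM values added after they were seen; of each pathway list up to 3 genes with the smallest p could be named. Marker lists covered macrophages, melanoma, T and NK, B, neutrophil, dendritic, fibroblast, endothelial, erythroid and keratinocyte cells. Settings varied were the pseudocount (0.1), the filter (none, or 1 FPKM in every library), median-of-ratios scaling, quantile normalization, a replicate block, a fit of the compared groups only and leaving out each library. No label pairs the replicate numbers across groups. Promoter windows are RefSeq's (GRCm38.p6, 32851 windows), matched by symbol, and no coordinate of the files was used. Tables and figures used matplotlib 3.10.9, pandas 2.3.3 and numpy 2.4.6 under Python 3.11.15.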

Additional observations from a re-analysis of the deposited data

Results flagged for a closer look

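In TAM, 8 members had 1 library far from the other 3 of its genotype, and in each case it was wild-type library 8, which lay above. Ccna2 was at 10.6 FPKM there, against 3.53 to 4.37 FPKM in the other wild-type libraries, and Plk1 at 3.17 FPKM against 0.765 to 1.16 FPKM. The checkpoint kinases Bub1 and Ttk were at 2.29 FPKM against 1.06 to 1.18 FPKM and at 1.58 FPKM against 0.511 to 0.653 FPKM. At the kinetochore, Cenpf was at 1.53 FPKM against 0.445 to 0.574 FPKM and Nuf2 at 3.87 FPKM against 1.45 to 1.64 FPKM. Kif20a was at 4.39 FPKM against 1.31 to 1.76 FPKM and Tpx2 at 5.08 FPKM against 2.80 to 3.12 FPKM. In all, 80 groups of 4 libraries were checked (40 members in each genotype), and chance flags about 1 in 20 groups, although members of one programme are not independent. The same library had the highest sums of fibroblast markers (245 FPKM, against 10.5 to 28.5 FPKM in the other 7) and of erythroid markers (228 FPKM, against 6.32 to 118 FPKM), and their part in these values was not tested. No labelled knockout group was flagged, since libraries 5 and 6 were high together.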

How the results depend on the processing

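Leaving out each library in turn, called members numbered 2 to 4 (wild type, 10 against 0 h), 27 to 31 (24 against 0 h) and 23 to 27 (24 against 10 h), in the labelled knockout 2 to 3, 32 to 33 and 31 to 32, and between genotypes 0 to 2 at 0 h (4 to 5 at an unadjusted p under 0.05 by limma where 0 passed), 0 to 0 at 10 h (4 to 9) and 6 to 19 at 24 h, the lowest without labelled knockout library 2; the interaction gave 0 to 2. Without wild-type library 1 of 0 h the balance at 10 h turned, to 3 higher and 1 lower of 4.
With a pseudocount of 0.1, 7 members passed at 10 h in wild type and 9 between genotypes at 24 h. Without the filter, 2 passed at 10 h in the labelled knockout and 1 between genotypes at 10 h. With 1 FPKM required in every library only 12 members were tested, and 8 and 7 passed in wild type (24 against 0 and 10 h), 10 and 9 in the labelled knockout, and 0, 0 and 6 between genotypes at 0, 10 and 24 h (4 and 2 unadjusted by limma for the zeros). Median-of-ratios scaling gave 1 between genotypes at 10 h and 1 for the interaction, and quantile normalization 7 at 10 h in wild type, 0 (6 unadjusted by limma) and 1 between genotypes at 0 and 10 h, and 1 for the interaction. Fitted on the compared groups only, 0, 0 and 0 passed between genotypes at 0, 10 and 24 h (11, 9 and 26 unadjusted by limma). The causes were not tested beyond the fewer genes or samples that some settings use.
With the replicate number as a block, 3 members passed at 10 h in wild type, 2 higher and 1 lower, so the balance turned, 2 at 10 h in the labelled knockout and 17 between genotypes at 24 h. The numbers pair no samples in the labels, and same-numbered libraries deviated together in 5 of 15 pairs (correlation over 0.1; range -0.141 to 0.148), so pairing is not established. A crossed pairing, added after the data were seen, gave 19 between genotypes at 24 h. In TAM every setting gave 0 members. Of 2328 alternatives for single members, 2207 stayed on the same side of the threshold, 95 lost the call, 26 gained it and 0 reversed a call. Changes of sign among members called in neither fit were not counted, as in TAM without labelled knockout libraries 5 and 6. A setting named beside a single call above is not always the only 1 that lost it.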
